A study of Mus musculus with 24 samples.

Results

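The 10 genes described here encode heat shock chaperones, proteins that bind unfolded or partly folded proteins and keep them from aggregating. They were taken by symbol, Hspe1, Hspd1, Hsph1, Dnajb1, Hspa1a, Hspa1b, Hspa8, Hsp90aa1, Hsp90ab1 and Hspb1, from a gene table of H3K27Ac signal in mouse organs, and all 10 of 10 were found among its 27179 genes. H3K27Ac, histone H3 acetylated at lysine 27, marks active promoters and enhancers and was mapped by chromatin immunoprecipitation and sequencing (ChIP-seq). Organs harvested from mice (brain, heart, kidney and liver) were preserved in either of 2 ways: Frozen tissue was flash frozen and its cores were crosslinked in 1% formaldehyde for 30 min, and FFPE tissue went through 10% formalin and paraffin before extraction at 95 °C for 20 min. Strain, genotype, age and sex were not given in the sources used here, and no treatment other than the preservation was named.

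The labels give 16 H3K27Ac samples, 2 for each organ and preservation, and 8 input samples, but the table holds 1 column for each organ and preservation and no input column. Which of the 2 samples a column holds, or whether it pools them, is unknown. Each column is called a library below, and there is no replicate within a group. Library totals lay between 4404789 counts (liver FFPE) and 6164562 counts (liver Frozen), and the 10 genes held between 97 counts (Hspb1 in brain Frozen) and 1153 counts (Hspa1b in heart Frozen). Organ labels were checked against lists of defining markers. The neuron, cardiomyocyte, nephron and hepatocyte lists each had their highest median level in their own organ, in both preservations. No marker found in the table was at 0. Genes of the mitochondrial genome took between 4.53% and 5.62% of the counts in the Frozen libraries and between 12.7% and 36.0% in the FFPE libraries, with the highest share in heart FFPE. The spread of the log2 values over genes was widest in heart Frozen (SD 2.40) and liver Frozen (SD 2.39) and between 1.94 and 2.09 in the other libraries.

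Heat shock chaperones work in families. Hsp70 proteins (Hspa1a, Hspa1b, Hspa8) bind short hydrophobic stretches in a cycle driven by ATP; J-domain proteins such as Dnajb1 deliver clients and speed ATP hydrolysis, and Hsp110 proteins such as Hsph1 exchange the nucleotide. Hsp90 proteins (Hsp90aa1, Hsp90ab1) act later, on kinases and steroid receptors; Hspd1 and its lid Hspe1 form the folding chamber of the mitochondrial matrix, and Hspb1 is a small heat shock protein that holds unfolded proteins without ATP. Under heat or proteotoxic stress, heat shock factor 1 (HSF1) binds arrays of the heat shock element in front of many of these genes, whereas Hspa8 and Hsp90ab1 are the forms made in unstressed cells.

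In GRCm38 coordinates (RefSeq annotation, release GRCm38.p6), Hspd1 occupied chr1:55077833-55088243 and Hspe1 chr1:55088148-55091317, head to head and overlapping by 96 bases, so that reads over the shared stretch cannot be assigned to one of them by position. Hspb1 lay at chr5:135887919-135889563, Hsph1 at chr5:149616843-149636498 and Dnajb1 at chr8:83608175-83612653. Hspa8 was at chr9:40801276-40805202, with the small nucleolar RNA genes Snord14c, Snord14d and Snord14e inside it, and Hsp90aa1 at chr12:110691036-110696395. Chromosome 17 held 3 of the genes: Hspa1b at chr17:34956429-34959238, Hspa1a 10120 bases away at chr17:34969359-34972156, and Hsp90ab1 at chr17:45567778-45573261. Which part of a gene the read counts cover is unknown.

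Upstream sequence is shown for 6 of the genes because the same short motif recurs in them. A RefSeq table of promoter windows covered 7 of the 10 genes with 10 windows; Hspa8, Hsp90aa1 and Hsp90ab1 had no entry. The 250 bases before each annotated start were searched for runs of the heat shock unit, GAA and TTC in alternation every 5 bases (GAANNTTC or TTCNNGAA for 2 units, which reads the same on both strands). Sequences are given 5′ to 3′ on the strand of the gene, for the shared Hspe1 and Hspd1 region on the strand of Hspe1, and capitals mark the runs. Only 30 bases are shown where another annotated start of the same gene lies farther upstream. The stretch between Hspe1 and Hspd1 is at chr1:55088053-55088082, that of Hsph1 at chr5:149636351-149636380, and the 250 bases before Hspa1a, Hspa1b and Hspb1 are at chr17:34972157-34972406, chr17:34959239-34959488 and chr5:135887669-135887918.
Hspe1 and Hspd1: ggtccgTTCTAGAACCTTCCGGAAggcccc
Hsph1: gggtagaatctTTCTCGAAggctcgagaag
Hspa1a: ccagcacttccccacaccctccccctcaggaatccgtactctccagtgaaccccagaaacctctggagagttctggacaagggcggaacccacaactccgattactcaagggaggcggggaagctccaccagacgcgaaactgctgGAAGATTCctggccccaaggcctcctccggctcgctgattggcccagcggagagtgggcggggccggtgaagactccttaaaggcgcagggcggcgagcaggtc
Hspa1b: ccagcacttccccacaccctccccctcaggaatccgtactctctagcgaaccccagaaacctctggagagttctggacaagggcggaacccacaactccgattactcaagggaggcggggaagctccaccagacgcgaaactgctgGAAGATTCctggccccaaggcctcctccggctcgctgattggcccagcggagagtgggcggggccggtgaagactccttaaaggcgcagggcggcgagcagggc
Hspb1: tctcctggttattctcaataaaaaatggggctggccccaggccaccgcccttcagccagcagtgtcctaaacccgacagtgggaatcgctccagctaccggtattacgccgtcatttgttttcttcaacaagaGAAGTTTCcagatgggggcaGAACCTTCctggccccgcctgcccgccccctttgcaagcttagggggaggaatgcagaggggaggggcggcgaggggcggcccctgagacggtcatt

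A run of 4 units stood in the 215 bases between the Hspe1 start and the Hspd1 start at chr1:55087932. It lay at positions -89 to -72 from Hspe1 and -144 to -127 from that Hspd1 start. The other of the 2 Hspd1 starts lies 95 bases beyond the Hspe1 start, and its window held no run of 2 units. Runs of 4 or more units were found in 7 of all 32851 promoter windows (0.0213%), of which the Hspe1 and Hspd1 windows are 2 that share this run. Hspb1 carried 2 separate runs of 2 units, and Hspa1a, Hspa1b and Hsph1 carried 1 run of 2 units each. A run of at least 2 units occurred in 12.8% of all windows and one of at least 3 in 0.466%, so a pair of units is not rare by itself. In the Dnajb1 windows no run of 2 was found. The 250 bases before Hspa1a and Hspa1b differed at 3 positions (98.8% identity), and the genes themselves are near-identical copies, so how reads were split between them depends on the handling of reads that map to both, which is unknown. A GC box (GGGCGG, either strand) was present in all 10 windows of these genes and in 32.7% of all windows, a CCAAT box (CCAAT, either strand) in those of Hsph1, Hspa1a and Hspa1b and 1 of 2 of Dnajb1 against 33.8%, and TATAAA (either strand) in none of them against 12.4%. These matches describe letters in the windows and not bound sites.

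**Figure D1:**
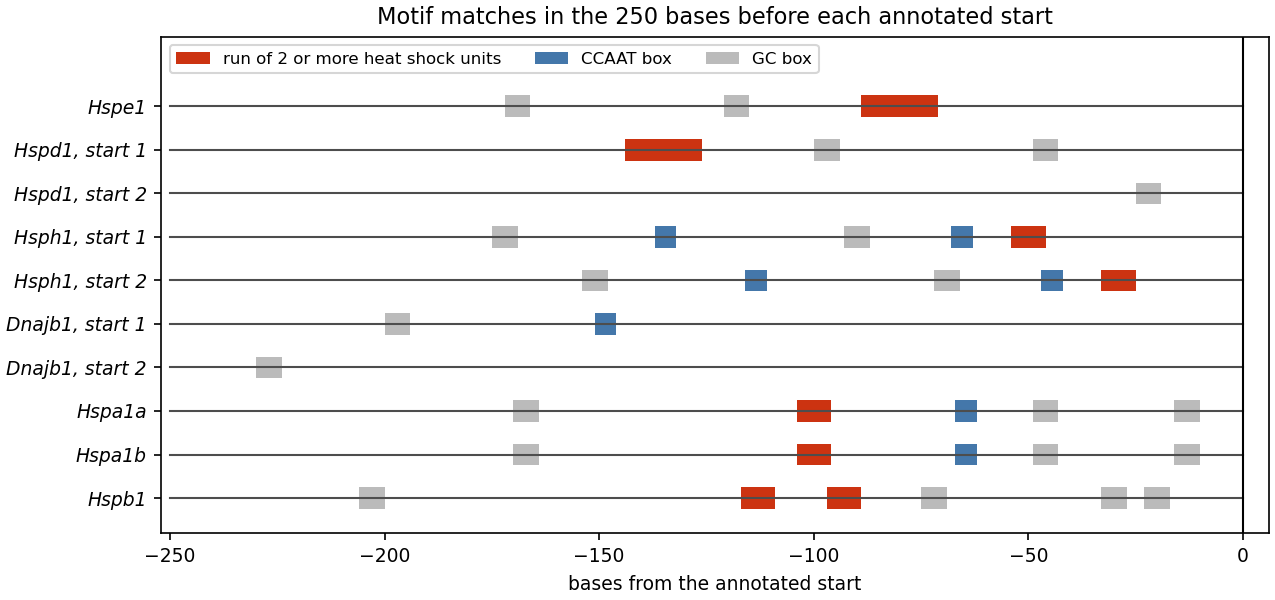
Positions of motif matches (coloured blocks) in the 250 bases before each annotated start of 7 chaperone genes; the x axis gives bases from the start and each line is 1 window. The longest run, 4 heat shock units, is shared by Hspe1 and the first Hspd1 start, and the remaining runs have 2 units.

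The deposited values are log2 CPM, counts scaled to a common library size on a log2 scale, where a higher value means more reads over the gene. Without regard to gene length, the median of the chaperone genes lay above that of all genes in every library. It ran from 5.64 in brain Frozen to 7.30 in heart Frozen. The median of the 26944 genes with a count in any library ran from 4.25 to 4.4. In brain Frozen Hspb1, at 4.08, lay below the median gene of that library (4.38). Per kilobase of annotated gene, which is needed to compare genes with each other, the mean over the 8 libraries was highest for Hspa1b (40.5 CPM per kb), Hspa1a (37.7 CPM per kb) and Hspb1 (37.1 CPM per kb). It was lowest for Hsph1 (5.05 CPM per kb) and Hspd1 (7.59 CPM per kb), whose annotated spans are the longest. Because the counted region is unknown, this order holds only for counts spread over the whole span.

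**Figure D2:**
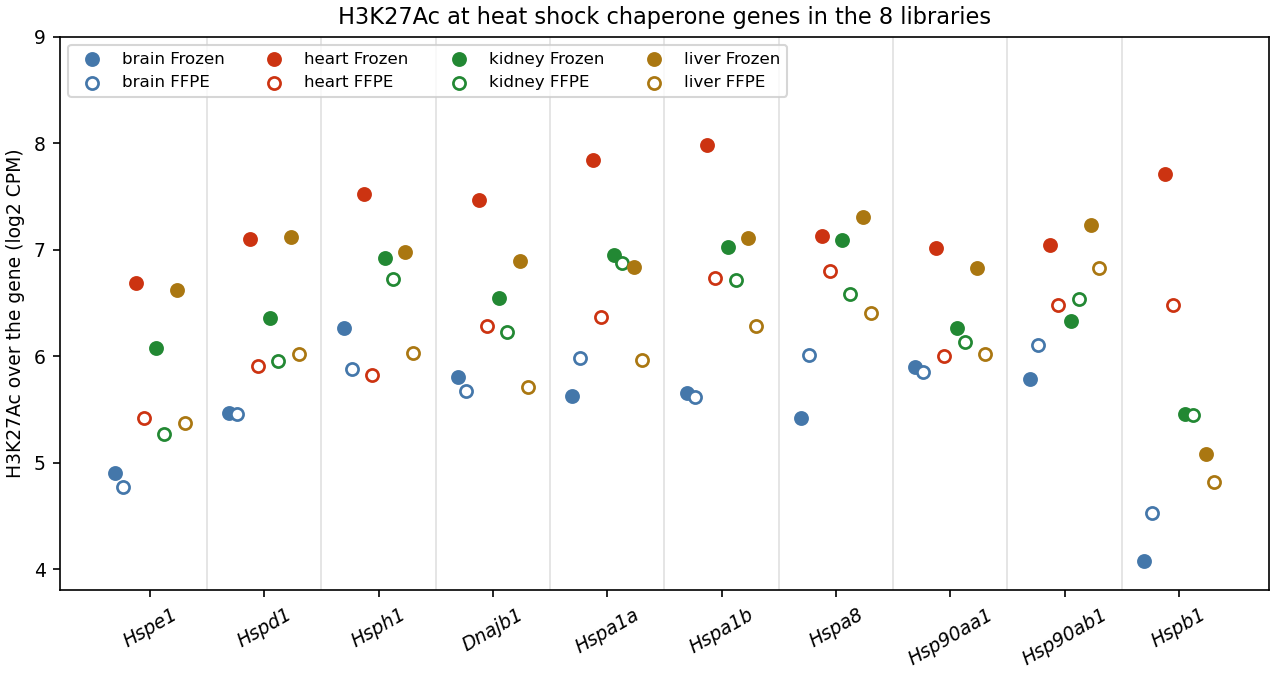
H3K27Ac level (log2 CPM, y axis) of each chaperone gene in the 8 libraries; filled points are Frozen and open points FFPE, coloured by organ, with 1 library per point and no error bar. Brain points lie at the bottom for most genes, heart Frozen or liver Frozen at the top for every gene, and Hspb1 spans the widest range.

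The mitochondrial pair, Hspe1 and Hspd1, had nearly the same profile. With the Frozen value first and the FFPE value second, here and below, Hspe1 stood at 4.90 against 4.77 log2 CPM in brain, 6.69 against 5.42 in heart, 6.07 against 5.27 in kidney and 6.62 against 5.37 in liver. Hspd1 stood at 5.46 against 5.45 log2 CPM in brain, 7.10 against 5.90 in heart, 6.36 against 5.95 in kidney and 7.12 against 6.02 in liver. Both genes were lowest in the 2 brain libraries, without overlap with the other 6, and highest in Frozen heart and Frozen liver. Over the 8 libraries their values correlated at Pearson r = 0.987, the highest of the 45 pairs among the 10 genes. The overlapping annotation and shared upstream region mean that this pair is not 2 separate observations.

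The inducible Hsp70 genes, Hspa1a and Hspa1b, were both highest in Frozen heart. Hspa1a stood at 5.63 against 5.98 log2 CPM in brain, 7.85 against 6.37 in heart, 6.95 against 6.87 in kidney and 6.84 against 5.96 in liver. Hspa1b stood at 5.66 against 5.61 log2 CPM in brain, 7.98 against 6.74 in heart, 7.02 against 6.71 in kidney and 7.11 against 6.29 in liver. For Hspa1b both brain libraries were below the other 6. For Hspa1a the brain and liver FFPE values were nearly equal, so that brain did not stand apart in FFPE tissue.

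Hspa8, the Hsp70 of unstressed cells that also uncoats clathrin vesicles, stood at 5.42 against 6.01 log2 CPM in brain, 7.13 against 6.80 in heart, 7.09 against 6.59 in kidney and 7.31 against 6.41 in liver. Frozen brain was the lowest library, and brain was the one organ where the FFPE value was above the Frozen one. The Hsp70 partner Dnajb1 stood at 5.80 against 5.67 log2 CPM in brain, 7.46 against 6.28 in heart, 6.54 against 6.23 in kidney and 6.89 against 5.71 in liver. Hsph1, the nucleotide exchange factor, stood at 6.27 against 5.88 log2 CPM in brain, 7.52 against 5.82 in heart, 6.92 against 6.72 in kidney and 6.98 against 6.03 in liver. Heart held both the highest and the lowest Hsph1 value, and Hsph1 was the one gene of the 10 whose lowest library was not a brain library.

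Hsp90aa1, the stress-inducible cytosolic Hsp90, had the narrowest range of the set, 1.16 log2 units, with 5.90 against 5.85 log2 CPM in brain, 7.01 against 6.0 in heart, 6.27 against 6.13 in kidney and 6.83 against 6.02 in liver. Hsp90ab1, its constitutive partner, stood at 5.78 against 6.10 log2 CPM in brain, 7.05 against 6.48 in heart, 6.33 against 6.53 in kidney and 7.23 against 6.83 in liver. Liver was its highest organ and brain its lowest in both preservations, as for Hspd1. Hspb1 had the widest range, 3.64 log2 units, with 4.08 against 4.52 log2 CPM in brain, 7.71 against 6.48 in heart, 5.45 against 5.45 in kidney and 5.08 against 4.81 in liver. Its order, heart, kidney, liver and then brain, was the same in both preservations, and both heart libraries were above the other 6.

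H3K27Ac over the chaperone genes was lower in brain than in the mean of the other 3 organs. In a linear model with organ and preservation (limma, 8 libraries, 3 residual degrees of freedom, Benjamini-Hochberg over 26944 genes, two-sided, threshold 0.05), 8 of the 10 genes were called lower, 0 higher, against 13.6% of all genes called lower. The difference was -1.53 ± 0.24 log2 units (SE) for Hspb1 (adjusted p = 1.46e-05), -1.34 ± 0.22 for Hspa1b (adjusted p = 2.56e-05), -1.17 ± 0.23 for Hspa8 and -1.07 ± 0.23 for Hspe1. It was -1.0 ± 0.25 for Hspa1a, -0.95 ± 0.22 for Hspd1, -0.80 ± 0.21 for Hsp90ab1 and -0.78 ± 0.22 for Dnajb1. Hsph1 (-0.59 ± 0.23, adjusted p = 0.0633) and Hsp90aa1 (-0.50 ± 0.22, adjusted p = 0.0954) did not pass. The median difference was -0.98 over the 10 genes and 0.04 over all genes tested. Most chaperone genes lie above the median level, and this share of all genes and those below are not matched for level. Without the lowest 25% of genes, 3918 of 20208 genes were called lower in brain, with a median of -0.09.

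The brain value was lower than each other organ for all 10 genes in Frozen tissue, which held for 26.8% of all genes, and for 8 of 10 in FFPE tissue, which held for 28.0%. Both brain libraries lay below all other 6 for 7 genes (Hspe1, Hspd1, Hspa1b, Hspa8, Hsp90aa1, Hsp90ab1 and Hspb1), against 11.7% of all genes. No gene of the set changed direction in brain under any of the 15 alternatives, but without the brain Frozen library 2 genes passed, Hspa1b and Hspb1, and 10 passed without brain FFPE. Within Frozen tissue the median difference of brain from the other organs was -1.48, and within FFPE tissue it was -0.51.

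Heart showed the opposite shift for some of the genes. Hspb1, which is abundant in muscle, was higher in heart than in the other organs by 2.20 ± 0.24 log2 units (adjusted p = 6.84e-08), and it was called under all 15 alternatives. Hspa1b was higher by 0.96 ± 0.22 (adjusted p = 0.00196), Hspa1a by 0.73 ± 0.25 (adjusted p = 0.035) and Dnajb1 by 0.73 ± 0.22 (adjusted p = 0.0198). The Hspa1a call was lost in 9 of the 15 alternatives, the Dnajb1 call in 6 and the Hspa1b call in 2. The 4 of 10 genes called higher compare with 9.42% of all genes called higher in heart. Hspa1a and Hspa1b are near-identical copies and may not be 2 separate observations. The median difference was 0.52 over the 10 genes against -0.04 over all genes. Heart was above the other 3 organs for 7 genes in Frozen tissue (26.3% of all genes) and for 5 in FFPE tissue (24.5%), but both heart libraries were above all other 6 for Hspb1 alone (8.94% of all genes). Frozen heart is also the library with the widest spread of log2 values; once every library was given one median and one spread, 2 genes were called, and without heart Frozen 1 was, Hspb1. Leaving out kidney Frozen gave 2 calls and leaving out brain FFPE gave 7.

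Kidney did not stand apart: its differences from the other organs ran from -0.15 to 0.47 with SE of at most 0.25, 0 of 10 genes were called by limma, 0 had an unadjusted p under 0.05, and 3.19% of all genes were called higher. In liver Hsp90ab1 was higher by 0.65 ± 0.21 (adjusted p = 0.0261), where 11.2% of all genes were called higher. Hspb1 was lower in liver, with a difference of -0.67 ± 0.24 log2 units (adjusted p = 0.0466), where 9.73% of all genes were called lower. At 1 of 10 genes each way, these shares are close to those of all genes. Both directions held in all 15 alternatives, but the Hsp90ab1 call was lost in 7 of them (without brain Frozen, heart FFPE, kidney Frozen or liver Frozen, each left out in turn, with quantile normalization, with one median and spread for every library, and without a variance trend). The Hspb1 call in liver was lost in 8: without a filter (adjusted p = 0.109), without a variance trend (adjusted p = 0.259), and leaving out brain FFPE, heart Frozen, kidney Frozen, kidney FFPE, liver Frozen or liver FFPE.

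**Figure D3:**
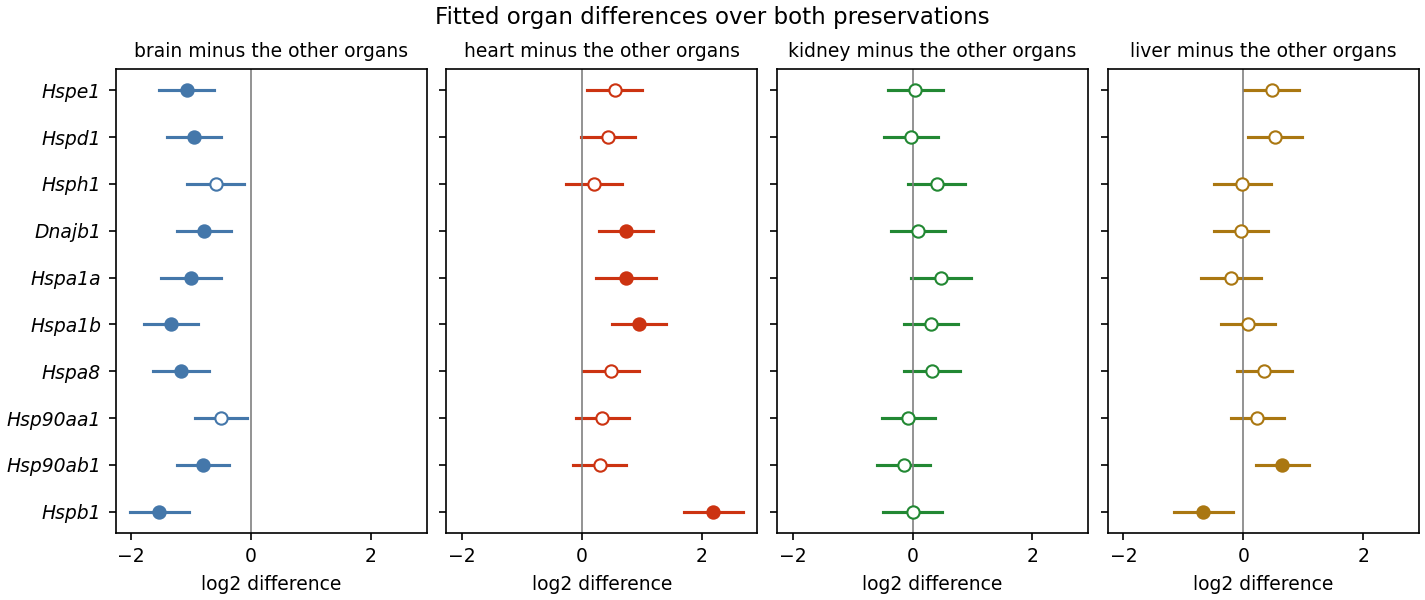
Fitted log2 difference of each organ from the mean of the other 3 (x axis) for the 10 chaperone genes, with 95% intervals as bars; filled points passed the adjusted threshold. Brain has 8 filled points left of 0, heart 4 right of 0, kidney none, and liver 1 on each side.

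Pairs of organs were compared in the same fit to see which neighbours in the order differ. Brain was lower than heart for 8 of 10 genes (12.7% of all genes), lower than kidney for 5 (6.23%) and lower than liver for 5 (15.0%). The largest of these differences was that of Hspb1 between brain and heart, -2.80 ± 0.30 log2 units. Heart was higher than kidney for 1 gene (5.37%) and higher than liver for 1 gene (8.48%), in both cases Hspb1, by 1.65 ± 0.30 and 2.15 ± 0.30 log2 units. Between kidney and liver 0 genes were called by limma, with 1 at an unadjusted p under 0.05, against 7.05% of all genes lower in kidney. For the other 9 genes the order of heart, kidney and liver was therefore not resolved beyond the spread of these libraries.

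Of the 10 genes, 4 were lower in FFPE than in Frozen tissue over the organs, against 1.91% of all genes called lower. The FFPE minus Frozen difference was -0.86 ± 0.20 log2 units for Hspe1 (adjusted p = 0.00629), -0.81 ± 0.20 for Hsph1 (adjusted p = 0.0144), -0.70 ± 0.19 for Dnajb1 (adjusted p = 0.0289) and -0.68 ± 0.19 for Hspd1 (adjusted p = 0.0391). Hspa1b (-0.61 ± 0.19, adjusted p = 0.0699), Hspa1a (-0.52 ± 0.21) and Hsp90aa1 (-0.50 ± 0.19) did not pass, and neither did Hspa8 (-0.28 ± 0.20). Hspb1 (-0.27 ± 0.21) and Hsp90ab1 (-0.11 ± 0.19) did not pass either; both changed sign without a heart library, and Hsp90ab1 also under 3 other scalings. The median difference was -0.56 over the 10 genes and 0.02 over all genes. FFPE was below Frozen in all 4 organs for 6 genes (Hspe1, Hspd1, Hsph1, Dnajb1, Hspa1b and Hsp90aa1), which held for 10.4% of all genes.

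These calls rest on few libraries: leaving out 1 library at a time, 0 of 10 genes passed without heart Frozen, heart FFPE, liver Frozen or liver FFPE (limma), 1 without kidney FFPE, 2 without kidney Frozen, and 7 without brain Frozen or brain FFPE. The median difference over the 10 genes was -0.36 without a heart library, -0.47 without a liver library, -0.69 without a kidney library and -0.80 without a brain library, so it stayed below 0 where calls were lost. The higher mitochondrial share and the narrower spread of the FFPE heart and liver libraries moved with the preservation. Scaled to the counts outside mitochondrial genes, 4 genes passed. With every library given one median and one spread, 2 passed, and the median difference over the 10 genes was -0.32. In a tissue sample, fewer cells of a type and less signal per cell cannot be told apart.

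Organ by organ, FFPE minus Frozen was farthest below 0 in heart and liver and near 0 in brain. Within an organ there is 1 library on each side, so no test applies and the intervals cover counting error only (exact, 95%). The intervals also take the deposited scaling as fixed. In heart the FFPE value was below the Frozen value for 10 of 10 genes, with all intervals below 0 and a median of -1.22; Hsph1 differed most, at -1.70 (interval -1.91 to -1.50). In liver it was below for 10 of 10 genes, with 9 intervals below 0 and a median of -0.89; Hspe1 differed most, at -1.25 (interval -1.50 to -1.01). Kidney had 9 of 10 genes below, 6 with an interval below 0, and a median of -0.26. Brain had 6 of 10 genes below, 1 of them with an interval below 0 and 4 genes with an interval above 0, and a median of -0.03. The median over all genes was between -0.02 and 0.04 in each organ. Of all genes, 51.2% were below 0 in heart, 47.9% in liver, 48.5% in kidney and 49.5% in brain. Counting intervals were computed for the 10 genes only, so the share of all genes with an interval off 0 is not known. The median levels of the 8 markers of each organ's main cell type also differed between Frozen and FFPE. They were 6.34 against 5.93 log2 CPM for cardiomyocyte markers in heart and 7.68 against 6.96 for hepatocyte markers in liver. For nephron markers in kidney they were 6.23 against 6.60, and for neuron markers in brain 5.84 against 6.51. Their part in the result was not tested. After the same change of scale the medians of the 10 genes were -0.62 in heart, -0.41 in liver, -0.31 in kidney and -0.05 in brain.

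Whether 1 organ's FFPE effect departs from that of the other 3 was tested by an added term for that organ (limma, 2 residual degrees of freedom). For brain the term was above 0 for all 10 genes, with a median of 0.82, and 5 genes had an unadjusted p under 0.05, as 1042 of 26944 genes had in that direction, but 0 of the 10 were called (lowest adjusted p = 0.667). For heart it was below 0 for all 10 genes, with a median of -0.69, 3 genes at an unadjusted p under 0.05 (489 of 26944 genes) and 0 called (lowest adjusted p = 0.774). For kidney and liver 0 genes were called and 0 had an unadjusted p under 0.05. Leaving out liver Frozen or liver FFPE gave 3 calls in heart. The error of each term is the spread of FFPE minus Frozen among the remaining organs, so it includes any real difference between those. The organs' preservation effects on these genes are therefore not shown to differ with these 8 libraries, and not shown to be alike.

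**Figure D4:**
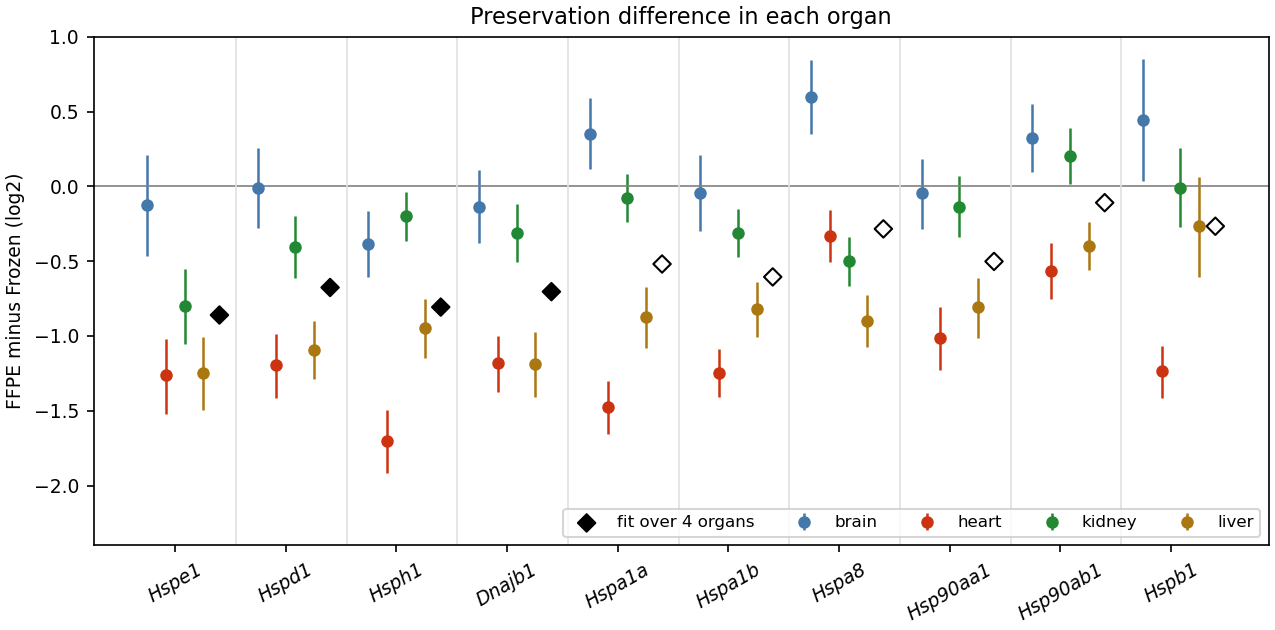
FFPE minus Frozen (log2, y axis) for each chaperone gene within each organ, coloured circles with 95% counting intervals, beside the fitted value over the 4 organs (diamonds, filled where the adjusted threshold was passed). Heart and liver circles lie below 0 for all 10 genes, and brain circles lie around 0.

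Among themselves the 10 genes varied together over the 8 libraries, with pairwise Pearson r from 0.53 (Hsph1 and Hspb1) to 0.99 and a median of 0.83. The libraries share depth, spread and preservation, so these are descriptions over 8 points. Hspa1b followed the mean of the other 9 most closely (r = 0.983), and Hspb1 (r = 0.737) and Hsp90ab1 (r = 0.762) least. The genes outside the set with the most similar profile to its mean, among the 13462 above the median level, were Cactin (r = 0.988), Ndufa13 (r = 0.985), Tcaim (r = 0.984), Lsm4 (r = 0.982) and Pde12 (r = 0.982). Such profiles were common: 574 genes (4.26%) had r above 0.9, and the median was 0.35. Cactin ran from 5.84 log2 CPM in brain Frozen to 7.20 in heart Frozen, a range of 1.36, as in the chaperone genes with brain low and Frozen heart high.

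Genes next to the chaperone genes were read for comparison, since broad H3K27Ac domains can cover several genes. Of 14 protein-coding genes within 20 kb that are not in the set, 7 were lower and 2 higher in brain, 5 higher and 2 lower in heart, and 0 were called in the FFPE comparison (limma). Of all genes, 13.6% were lower and 8.73% higher in brain, and 9.42% were higher and 7.31% lower in heart. Hspa1l, a relative of Hsp70 best known from testis that lies 546 bases from Hspa1a, was lower in brain (-1.63 ± 0.22 log2 units) and higher in liver (1.23 ± 0.22). Srrm3 beside Hspb1 and Tmem151b, 18100 bases from Hsp90ab1, were higher in brain, by 1.60 ± 0.24 and 2.12 ± 0.25. Closer to Hsp90ab1, Slc35b2 (106 bases) and Slc29a1 (11938 bases) were lower in brain, at -0.63 ± 0.21 and -1.67 ± 0.23. Both were higher in liver, by 0.73 ± 0.21 and 1.75 ± 0.23, as Hsp90ab1 was. Nfkbie, 4608 bases from Hsp90ab1, was called in neither organ, and Tmem151b was lower in liver (-1.24 ± 0.25). Some neighbours thus moved with the chaperone gene beside them and others did not.

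Other chaperone genes were read from 9 lists of 94 genes in all. In brain 34 of the 94 were lower and 3 higher, with a median of -0.51. Over all genes 13.6% were lower and 8.73% higher, with a median of 0.04. The 3 higher genes were Hspb3 (1.06 ± 0.36), the heat shock factor Hsf5 (0.75 ± 0.24) and the mitochondrial Grpel2 (0.65 ± 0.22). Brain was not above every other organ for any of them in both preservations. Hspb3 stood at 3.91 against 3.50 log2 CPM in brain, below heart (4.99 against 4.78), with kidney and liver at most 1.67. Grpel2 in liver Frozen (6.73) was above brain Frozen (6.32), and Hsf5 in liver FFPE (5.47) was above brain FFPE (5.41). The Hsp70 relatives were lower for 6 of 11, among them Hspa5 (-1.04 ± 0.22), the Hsp70 of the endoplasmic reticulum, and the mitochondrial chaperones and proteases for 4 of 12, among them Clpx (-1.08 ± 0.21) and Grpel1 (-1.08 ± 0.21). Co-chaperones of Hsp70 and Hsp90 were lower for 9 of 23, with Bag3 (-1.60 ± 0.22), which links Hsp70 to selective autophagy, and Bag1 (-1.09 ± 0.22) farthest. J-domain proteins were lower for 6 of 20 (Dnajb11 at -0.93 ± 0.22 and Dnajb4 at -0.89 ± 0.22) and subunits of the cytosolic chaperonin CCT for 3 of 8 (Tcp1 at -0.86 ± 0.22). Chaperones of the endoplasmic reticulum were lower for 9 of 14, with a median of -0.63, and the J-domain list had a median of -0.27. Without brain Frozen 0 of 14 endoplasmic reticulum chaperones, 0 of 20 J-domain proteins, 3 of 23 co-chaperones and 2 of 11 Hsp70 relatives were called lower (limma). The endoplasmic reticulum count of 9 also fell to 4 with quantile normalization, 2 when scaled to the total count and 0 without a variance trend.

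Small heat shock proteins were the list with the widest organ differences. In heart 7 of 8 were higher, against 9.42% of all genes, with a median of 1.56. Hspb7 was higher by 2.92 ± 0.24 log2 units, Hspb3 by 2.63 ± 0.36 and Cryab by 1.73 ± 0.24. Hspb2, which lies beside Cryab in the genome, was higher by 1.54 ± 0.26. Hspb7 stood at 7.67 and 7.24 log2 CPM in heart and at most 5.78 in any other library. Both its heart libraries were thus above the other 6, which held for 8.94% of all genes. In liver 5 of the 8 were lower and 1 higher, where 9.73% of all genes were lower and 11.2% higher. Hspb7 was at -2.11 ± 0.24, Cryab at -1.88 ± 0.24 and Hspb8 at 1.42 ± 0.24. Hspb1 moved in heart and liver in the directions of most of this list. Without heart Frozen 4 of 8 were called higher in heart.

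Liver was set apart by the endoplasmic reticulum chaperones, which fold secreted proteins: 13 of 14 were higher, with a median of 0.92, where 1 of the 10 heat shock genes and 11.2% of all genes were. Dnajb11 was higher by 1.98 ± 0.22 log2 units, Sdf2l1 by 1.43 ± 0.25, Hyou1 by 1.27 ± 0.20 and Hspa5 by 0.91 ± 0.22. Dnajb11 stood at 7.64 and 6.72 log2 CPM in liver and at most 5.44 in any other library. Without liver Frozen 4 of 14 were called, and without a variance trend 6 were. In CCT 3 of 8 subunits were higher in liver, led by Tcp1 (1.58 ± 0.22).

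In the FFPE comparison 6 of the 94 genes were called lower and 0 higher, where 1.91% of all genes were called lower, and all 6 were co-chaperones. Ptges3, the p23 co-chaperone of Hsp90, differed by -0.93 ± 0.20 log2 units, with 5.34 against 5.25 log2 CPM in brain, 7.09 against 5.66 in heart, 6.28 against 5.35 in kidney and 6.96 against 5.69 in liver. Stub1, the ubiquitin ligase CHIP that binds Hsp70 and Hsp90, differed by -0.88 ± 0.20. The drop in Ptges3 was smallest in brain. Among the co-chaperones 0 were called with heart Frozen or heart FFPE left out (limma), 1 with either kidney or either liver library left out, 10 with brain Frozen or brain FFPE left out, 2 without a filter, 0 without a variance trend, 3 with quantile normalization and 10 when scaled to the total count. Of the heat shock factors, 0 of 5 were called in this comparison; Hsf1 differed by -0.28 ± 0.20 between preservations and by 0.20 ± 0.23 between brain and the other organs.

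**Figure D5:**
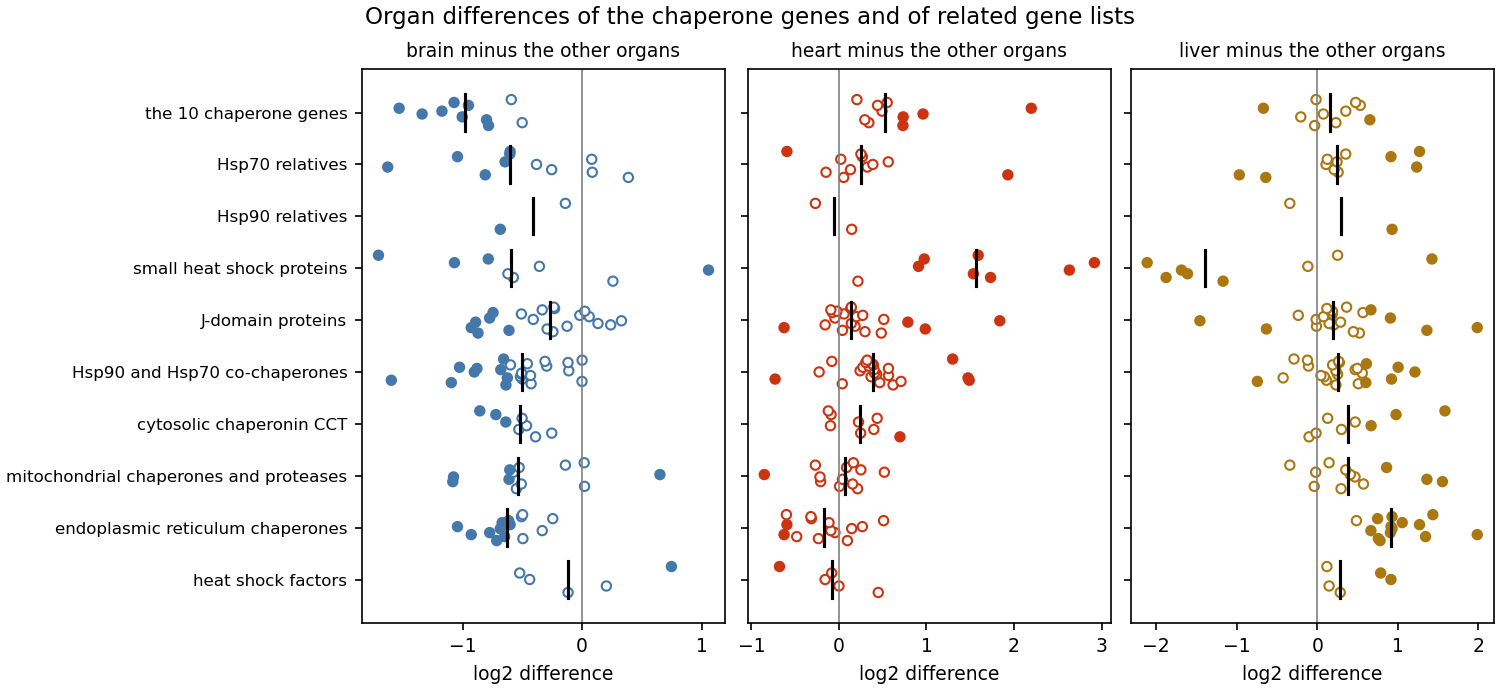
Fitted log2 differences of brain, heart and liver from the mean of the other organs (x axis) for the 10 chaperone genes and 9 lists of related genes; each circle is a gene, filled where the adjusted threshold was passed, and the bars are list medians. Small heat shock proteins are farthest right in heart (median 1.56) and endoplasmic reticulum chaperones are right of 0 in liver (median 0.92).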

How the data were processed

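H3K27Ac ChIP-seq was measured in 4 mouse organs, Frozen and FFPE. The submitters' processing notes name Bowtie2, featureCounts, limma and the build mm10; versions and the handling of reads that map more than once were not given in the sources used here. Values in the deposited table are log2 CPM: worked out from the values, the authors took log2 of (count + 0.5) over a scaled library size, and whole counts came back from 100% of the values within 0.001, with scaling factors of 0.749 to 1.22. Table IDs were matched to RefSeq for 25275 of 27179 genes. Here 26944 genes with a count in any library were fitted with limma 3.58.1 in R 4.3.3 (organ plus preservation, variance trend), after a test on simulated data; each named gene's p was adjusted over all of them. Labels do not say whether libraries come from separate animals, and name 2 ChIP runs and 2 library kits that could not be tied to columns. The p-values therefore measure only the spread between these libraries, and with 1 library for each organ and preservation none of it is between replicates. What the main fit takes as error is how far FFPE minus Frozen differs between organs, which limma pools over genes. Real differences between organs in the preservation effect and noise between libraries cannot be told apart in it. For a single-organ term the error is the same spread among the remaining organs. With this pooling the total degrees of freedom were 33.6 in the main fit and 28.7 to 2870 for the single-organ terms. Each SE thus rests mostly on the pooled spread and less on the gene's own. Intervals within an organ cover counting error only, since there is 1 library on each side. Reads carry no molecular identifiers, so repeated reads of 1 fragment cannot be told from separate fragments, and the intervals do not cover this.

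The 10 genes, the related lists and the markers were chosen with earlier results of these data known. Named genes were all 10; in each related list and comparison, up to 2 genes in each direction with the largest called difference; and the 5 genes with the most similar profile. Hspb2 and Cryab in heart, Hspa5 in liver, Hsf1 and the neighbouring genes were named after their values were seen. Alternatives covered the filter, the variance trend, 4 scalings and leaving out each library. The other scalings within an organ, and the alternatives for the single-organ terms, were added after seeing the data.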

Additional observations from a re-analysis of the deposited data

Results flagged for a closer look

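In 4 of the 10 genes the FFPE minus Frozen difference lay on opposite sides of 0 in different organs, each with a counting interval that leaves 0 out. Only the 10 genes were examined in this way, so how common such opposite intervals are among all genes is not known. Hspa8 was at 0.60 in brain and below 0 in heart, kidney and liver. Hspa1a was at 0.35 in brain and below 0 in heart and liver. Hsp90ab1 was at 0.32 in brain and 0.21 in kidney and below 0 in heart and liver. Hspb1 was at 0.44 in brain and below 0 in heart. Each value is 1 pair of libraries, so these differences between single organs were not tested; the fitted terms for 1 organ against the other 3 called 0 of the 10 genes with all libraries (limma). In no gene did the highest or lowest of the 4 organs' values stand far enough from the rest to pass Dixon's 95% limit. The intervals take the deposited scaling as fixed. In brain their lower limits were 0.35 for Hspa8, 0.11 for Hspa1a, 0.10 for Hsp90ab1 and 0.04 for Hspb1. Scaled to the total count, the median of the 10 genes in brain moved from -0.03 to -0.26, and 4 genes stayed above 0. In kidney 0 of 10 then lay above 0, so the Hsp90ab1 difference there changed sign. Intervals were not computed at other scalings.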

How the results depend on the processing

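No paired analysis was possible because the table's columns carry no replicate numbers; organ is already a term in the FFPE against Frozen fit, so that difference is taken within organs. Over 15 alternatives, the direction of all 10 genes in brain and of the calls in heart and liver held. Without a variance trend 0 genes were called in FFPE against Frozen (4 with the trend), 2 in brain (8), 1 in heart (4) and 0 higher in liver (1). Without a filter 1 was called in FFPE and 2 in heart. Quantile normalization gave 2 in FFPE, 3 in kidney (0 with the deposited scaling) and 0 higher in liver. The same median and spread gave 2 in FFPE, 2 in heart, 3 in kidney and 0 higher in liver; CPM of the total count gave 7 in FFPE and 2 in heart. That last scaling moved the median of all genes to -0.14 in FFPE, 0.27 in brain and -0.37 in heart. Leaving out 1 library gave 0 to 7 calls in FFPE, 2 to 10 in brain, 1 to 7 in heart, 0 to 1 in kidney, 0 to 3 higher in liver and 0 to 3 for the heart term. The FFPE difference of Hsp90ab1 was 0.10 with quantile normalization, 0.15 at the same median and spread, 0.0016 scaled to counts outside mitochondrial genes and -0.25 to 0.043 leaving out 1 library; that of Hspb1 was -0.50 to 0.057. Both were uncalled throughout. Except where libraries were left out, the cause was not tested. At 97 counts, Hspb1 in brain Frozen had the least depth.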
